A study of Mus musculus with 8 samples.

Results

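Round spermatids of mice with 1 wild-type and 1 knock-in allele of Miwi (MIWI +/KI) were compared with round spermatids of mice with 1 wild-type and 1 null allele (MIWI +/-). The samples were chosen by their titles and make up 4 of the 8 arrays of the series, 2 per genotype. Both genotypes kept a wild-type allele, and only the other allele differed, knock-in in place of null. The remaining 4 arrays came from MIWI -/- mice, with null alleles only, and from MIWI -/KI mice, with 1 null and 1 knock-in allele. All animals were untreated adults of the C57BL/6 strain. Cells were freed from the testes with collagenase, round spermatids were taken from fractions of an albumin gradient and pooled, and their total RNA was labelled with biotin and hybridised to Affymetrix arrays. The titles number the 2 arrays per genotype as biological replicates. The labels do not say whether a replicate was 1 animal or several, and do not describe the knock-in or the null allele. The p-values therefore measure the spread between these preparations.

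MIWI, the product of Piwil1, is a PIWI protein made from late meiosis on and in round spermatids. PIWI proteins bind piRNAs, small RNAs that guide them to complementary transcripts, and some of them cut the target with a catalytic site like that of Argonaute slicers. The series title places the arrays in a study of this catalytic activity and of the silencing of LINE1 retrotransposons. Round spermatids are the cells in which the haploid genome is transcribed most widely. Many of their transcripts are stored and translated only later, when the spermatid elongates, replaces histones by transition proteins and protamines, and builds the tail. Loss of MIWI is known to stop sperm formation at the round spermatid stage.

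Intensities are given on the linear scale of the deposited values, and differences are of mean log2 intensity, MIWI +/KI minus MIWI +/-, where 1 is a doubling. A gene was counted as changed, and is said to have risen or fallen, where limma's test over all transcript clusters gave a Benjamini-Hochberg adjusted p under 0.05. The array medians lay between 66.6 and 71.8. The 25 round spermatid markers, among them the acrosome gene Acrv1, had mean intensities between 255 and 3818 and a median of 1406, far above those array medians. Markers of elongating spermatids and of spermatocytes had medians of 1190 and 446. Brightness alone therefore does not set round spermatids apart from these stages. Replicates correlated at 0.989 in MIWI +/-, 0.995 in MIWI +/KI, 0.984 in MIWI -/- and 0.970 in MIWI -/KI, and the median SD of a gene within a genotype was 0.09, 0.06, 0.12 and 0.20 on the log2 scale in that order. The number of arrays limits the precision.

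The genotypes differ at Piwil1, so its signal was read first. Piwil1 (transcript cluster 10525961, chromosome 5) read 389 and 371 on the MIWI +/- arrays and 680 and 749 on the MIWI +/KI arrays. It read 196 and 151 in MIWI -/- and 672 and 696 in MIWI -/KI. The arrays of MIWI +/KI and MIWI -/KI overlapped, those of MIWI +/- lay below them, and those of MIWI -/- were the lowest. The difference between MIWI +/KI and MIWI +/- was 0.91 (SE 0.17, 95% interval 0.52 to 1.30, 1.88-fold) and missed the threshold, with an adjusted p of 0.114 from limma over all 8 arrays and 0.0167 when the spread was estimated from the 4 compared arrays alone. The sources used here do not say where the probes lie relative to the null allele. The signal in MIWI -/- therefore does not check that label.

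Across 19938 genes, 5 rose (0.0251%) and 14 fell (0.0702%) in MIWI +/KI by limma's test over all 8 arrays. The 5 that rose were Lypd11, Lypd10, Lrrc61, Tmem106c and Tkfc. The 14 that fell included the histone genes H2bl1 and H2ap, the carbonic anhydrase gene Car2, and Tex50 and Tex55, named for testis expression. Of these 19 genes 18 differed by at least 2-fold. In none did the arrays of the genotypes overlap, which also held for 56.9% of all genes and so says little about these 19. Their adjusted p-values lay between 0.0444 and 0.0457, close to the threshold, and the count depended on which arrays gave the spread. With the 4 compared arrays alone, limma called 738 genes higher (3.70%) and 736 lower (3.69%), all 19 among them. When either array of MIWI +/-, MIWI +/KI or MIWI -/- was left out, or when the arrays were shifted to the same median or quantile-normalised once more, it called 0; in those settings the 19 genes kept their sign and an unadjusted p under 0.05. At an unadjusted p under 0.05, 1228 genes were higher (6.16%) and 1107 lower (5.55%). At least 2-fold were 44 higher (0.221%) and 103 lower (0.517%). The median difference of all genes was 0.02.

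Around Piwil1 on chromosome 5, none of the 15 nearest measured genes on either side changed by limma (0 of 30, where 0.0251% of all genes rose and 0.0702% fell). An unadjusted p under 0.05 was reached by 4 of them (13.3%, against 11.7% of all genes in either direction). All 4 were higher, where 6.16% of all genes were higher. With the spread of the 4 arrays alone, 2 of the 30 were higher (3.70% of all genes). Their median difference was 0.10. The extremes were Dhx37, the gene of an RNA helicase, at 0.99 (SE 0.19, adjusted p = 0.136) and Septin14, a septin gene, at -0.47 (SE 0.26). These genes were named after their values were seen. Dhx37 read 155 and 173 in MIWI +/- and 322 and 327 in MIWI +/KI, without overlap. The immediate neighbours stood at 0.02 on both sides, in Rimbp2 and Fzd10.

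**Figure D1:**
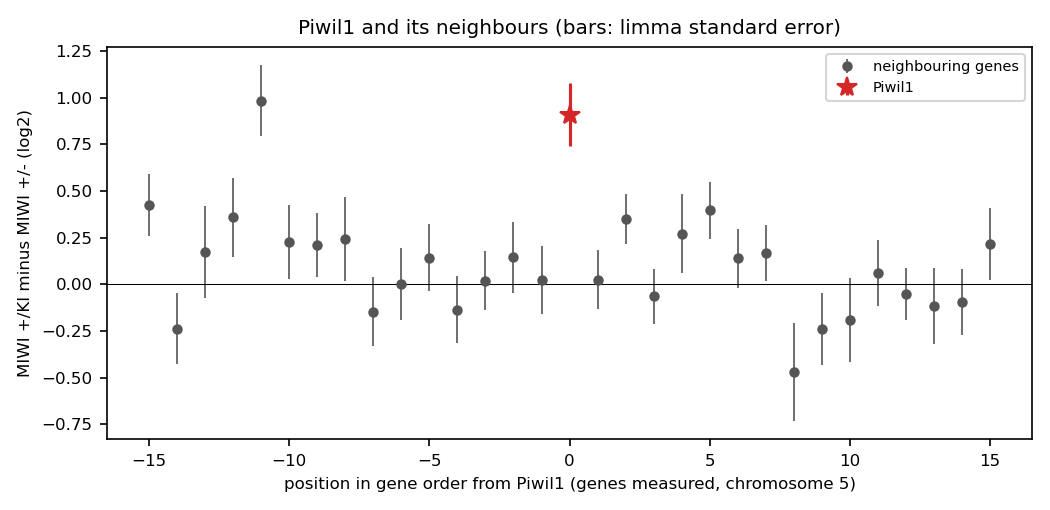
Difference of mean log2 intensity, MIWI +/KI minus MIWI +/-, of Piwil1 (star) and of the 15 nearest measured genes on each side, in gene order; bars are limma's standard error. Piwil1 lies at 0.91, Dhx37 at 0.99, and the median of the 30 neighbours is 0.10.

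The genes that rose are led by a pair of Lypd genes, which encode small cysteine-rich proteins of the Ly6/uPAR family. Lypd11 read 181 and 237 in MIWI +/- and 858 and 853 in MIWI +/KI (log2 difference 2.05, SE 0.19, 95% interval 1.62 to 2.47, 4.13-fold, limma adjusted p = 0.0444). Lypd10 read 106 and 149 in MIWI +/- and 436 and 443 in MIWI +/KI (1.81, SE 0.21, 3.50-fold, adjusted p = 0.0444). For both genes the knock-in arrays lay close together and far above the MIWI +/- arrays, which were less alike. In MIWI -/- Lypd11 read 949 and 1050 and in MIWI -/KI 792 and 1015, so that only the MIWI +/- arrays were low. Lypd10 read 675 and 708 in MIWI -/- and 562 and 736 in MIWI -/KI, above its level in MIWI +/KI. Lypd10 and Lypd11 lie next to each other on chromosome 7, with 495 bases between their annotated ends. Because both move together, the RefSeq sequences before their annotated starts (GRCm38.p6) are shown here, 5′ to 3′ along each gene's own strand. The 250 bases before the start in the promoter table were aligned. For Lypd10 the gene table places the first base of the gene earlier than that start, and the windows shown end at the alignment column just before it. They are 193 bases for Lypd10, chr7:24709009-24709201 on the plus strand, and 197 bases for Lypd11, chr7:24726962-24727158 on the minus strand. Capitals mark identical stretches of at least 8 bases that the alignment places together.
Lypd10: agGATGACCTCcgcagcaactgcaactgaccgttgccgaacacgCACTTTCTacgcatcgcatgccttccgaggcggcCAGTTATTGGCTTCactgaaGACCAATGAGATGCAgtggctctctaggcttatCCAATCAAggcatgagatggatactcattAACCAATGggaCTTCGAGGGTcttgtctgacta
Lypd11: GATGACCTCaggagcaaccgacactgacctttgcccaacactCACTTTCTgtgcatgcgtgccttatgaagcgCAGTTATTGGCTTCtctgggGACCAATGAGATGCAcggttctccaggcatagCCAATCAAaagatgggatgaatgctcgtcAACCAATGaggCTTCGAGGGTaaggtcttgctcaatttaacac

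In the 203 alignment columns shown, 152 bases were identical, and 7 marked stretches, the longest of 15 bases, held 72 bases. Several of the stretches hold CCAAT, the letters of a common promoter motif. Read on both strands, CCAAT occurred 4 times in each sequence shown. Another Lypd11 window in the promoter table, chr7:24724291-24724540, held 0 CCAAT and was not aligned. Whether a probe of one gene also binds transcripts of the other was not tested, since neither probe nor transcript sequences were compared. Of 26 measured genes of testis kallikreins, cystatins and Lypd proteins, a list of 3 families, these 2 rose and none fell. Of all genes 0.0251% rose and 0.0702% fell. At an unadjusted p under 0.05, 3 of the 26 were higher (11.5%, against 6.16% of all genes) and 6 lower (23.1%, against 5.55%). At least 2-fold were 2 higher and 5 lower, where 0.221% and 0.517% of all genes were (median of the list -0.03). Lypd9 stood at 0.17 and Lypd4 at 0.03, while the cystatin gene Cstl1 (-1.53, SE 0.19, limma adjusted p = 0.0577) and Cst13 (-1.35, SE 0.22, adjusted p = 0.100) lay lower without passing the test. Cstl1 read 1282 and 1289 in MIWI +/- and 490 and 403 in MIWI +/KI. Tex101, a germ cell surface glycoprotein gene of the same Ly6/uPAR family, read 326 and 368 in MIWI +/- and 556 and 493 in MIWI +/KI (0.59, SE 0.19, adjusted p = 0.288), against 2167 and 1511 in MIWI -/-.

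The other 3 genes that rose have no shared family. Lrrc61, which encodes a leucine-rich repeat protein, read 188 and 163 in MIWI +/- and 592 and 575 in MIWI +/KI (log2 difference 1.74, SE 0.17, 3.34-fold). Tmem106c, a transmembrane protein gene, read 97.8 and 98.7 against 234 and 259 (1.33, SE 0.14, 2.51-fold). Tkfc, the gene of triokinase, which phosphorylates dihydroxyacetone and glyceraldehyde, read 906 and 887 against 1752 and 1766 (0.97, SE 0.11, 1.96-fold). All 3 had a limma adjusted p of 0.0444. They read higher still without a wild-type allele: Lrrc61 1304 and 1487 in MIWI -/- and 1111 and 879 in MIWI -/KI, Tmem106c 542 and 530 in MIWI -/- and 477 and 443 in MIWI -/KI, and Tkfc 2257 and 2283 in MIWI -/- and 2007 and 1901 in MIWI -/KI. In these 3 genes the MIWI +/KI arrays thus lay above both MIWI +/- arrays and below all arrays of the other genotypes.

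Genes of haploid chromatin were among those that fell. H2bl1, a germ cell gene of an H2B-like histone variant, read 2111 and 2052 in MIWI +/- and 950 and 859 in MIWI +/KI (log2 difference -1.20, SE 0.14, 2.30-fold, limma adjusted p = 0.0454). H2ap, a gene of the H2A family and the only X-linked gene of the 19, read 412 and 398 against 169 and 162 (-1.29, SE 0.15, 2.45-fold, adjusted p = 0.0444). Lemd1, the gene of a LEM domain protein, read 224 and 238 against 91.3 and 92.7 (-1.33, SE 0.15). Each lay lower on every MIWI +/KI array by a margin many times the gap between replicates. H2bl1 read 417 and 367 in MIWI -/- and 499 and 449 in MIWI -/KI, and H2ap read 95.5 and 86.7 in MIWI -/- and 99.6 and 93.2 in MIWI -/KI, both below the MIWI +/KI arrays. Lemd1 read 77.8 and 73.4 in MIWI -/- and 87.2 and 96.3 in MIWI -/KI, the latter on both sides of its MIWI +/KI arrays.

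The largest falls were in Smim23, Tppp2, Tex55 and Gm136. Smim23, a gene of a small membrane protein, read 939 and 888 in MIWI +/- and 297 and 260 in MIWI +/KI (log2 difference -1.72, SE 0.20, 95% interval -2.17 to -1.27, 3.29-fold). Tppp2, which encodes a tubulin-binding protein of the tubulin polymerization-promoting family, read 601 and 681 against 208 and 183 (-1.71, SE 0.17, 3.28-fold). Tex55, named for its expression in testis, read 1096 and 1191 against 336 and 371 (-1.69, SE 0.18, 3.23-fold). All 3 had a limma adjusted p of 0.0444 and read lower on both MIWI +/KI arrays than on either MIWI +/- array. Without a wild-type allele Tppp2 read 65.5 and 57.0 in MIWI -/- and 69.5 and 58.3 in MIWI -/KI, Tex55 read 121 and 156 in MIWI -/- and 211 and 249 in MIWI -/KI, and Smim23 read 225 and 159 in MIWI -/- and 216 and 195 in MIWI -/KI.

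Of the remaining falls, Tex50 read 1433 and 1705 in MIWI +/- and 655 and 556 in MIWI +/KI (log2 difference -1.37, SE 0.15, 2.59-fold). Car2, the gene of a cytosolic carbonic anhydrase, read 1649 and 1459 against 662 and 669 (-1.22, SE 0.14, 2.33-fold), and 101 and 107 in MIWI -/-. Chrna5, a nicotinic acetylcholine receptor subunit gene, read 171 and 211 against 67.4 and 57.0 (-1.61, SE 0.18, 3.06-fold). For Tex50, Chrna5 and Car2 the gap between the genotypes was larger than the gap between replicates. Pldi, a long noncoding RNA of the testis and the only noncoding gene of the 19, read 402 and 429 against 156 and 171 (-1.35, SE 0.16, 2.54-fold). Chil3, a chitinase-like protein gene known from macrophages, read 49.4 and 69.1 in MIWI +/- and 18.5 and 19.5 in MIWI +/KI (-1.62, SE 0.19, adjusted p = 0.0457), the dimmest of the 19 on these arrays. The part of blood cells in that value was not tested: of 23 blood and macrophage markers none passed (3 lower at an unadjusted p under 0.05, or 13% against 5.55% of all genes, median -0.04), and their summed intensity was 3606 and 3364 in MIWI +/- and 2939 and 2829 in MIWI +/KI. The 3 uncharacterised loci that fell, named after their values were seen, were Gm136 (-1.66, SE 0.18), 4933402N03Rik (-1.50, SE 0.17) and 1700008P02Rik (-1.47, SE 0.17). Gm136 read 801 and 846 in MIWI +/- and 268 and 252 in MIWI +/KI, against 35.5 and 31.4 in MIWI -/-.

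**Figure D2:**
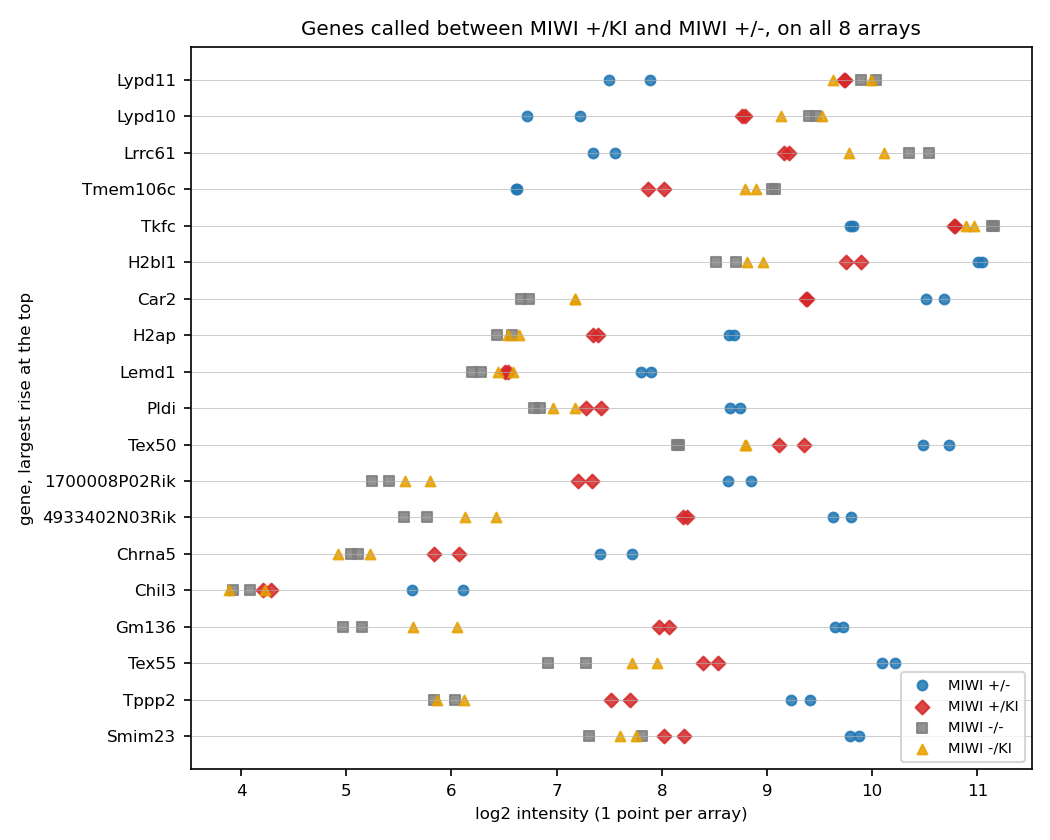
Log2 intensity of the 19 changed genes on each of the 8 arrays (1 point per array, symbols by genotype), ordered from the largest rise to the largest fall. In every gene the MIWI +/KI arrays are apart from the MIWI +/- arrays, from Lypd11 (2.05) to Smim23 (-1.72).

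The RefSeq promoter table (GRCm38.p6) holds the 250 bases before a start for 14 of the 19 genes, in 17 windows. A gene was counted where any of its windows matched, while the shares of all genes are per window. CREM, a transcription factor of haploid germ cells, binds the cyclic AMP response element TGACGTCA. This element was in 0 of the 14 genes and 0 of their 17 windows, against 1.55% of 32851 such windows of all genes. Its shorter form TGACG, on either strand, was in 4 of 14 genes and 4 of 17 windows, against 17.8% of all windows. The 4 were Chrna5 (39 bases before the start), Tex50 (58), Lypd11 (100) and H2ap (239). CCAAT was in 10 of 14 genes and 10 of 17 windows, against 33.8% of all windows. TATAAA, read on the gene's strand, was in 0 of 14 genes and 0 of 17 windows, against 7.59%. These are matches of letters and describe no binding.

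Transcripts listed here as markers of later spermatids mostly read lower in MIWI +/KI. This list, like the others, was chosen with earlier results of these data known, so its counts describe the list and are no independent test. Of 41 measured elongating spermatid markers, Car2 fell and none rose by the test over 8 arrays, against the backgrounds of 0.0702% and 0.0251% given above. At an unadjusted p under 0.05, 32 were lower (78.0%, against 5.55% of all genes) and 0 higher. With the spread of the 4 compared arrays 28 were lower and 0 higher, where 3.69% and 3.70% of all genes were. In all, 39 of the 41 lay below 0 (95.1%, against 46.0% of all genes), with a median of -0.70, where the median of all genes was 0.02. Their summed intensity was 98463 and 92172 in MIWI +/-, 66675 and 64099 in MIWI +/KI, 34301 and 32988 in MIWI -/-, and 38481 and 35522 in MIWI -/KI. The 2 genotypes with a wild-type allele were thus above those without, and MIWI +/KI was below MIWI +/- on each array. In such bulk samples, fewer cells of a stage and less RNA per cell cannot be told apart. The 25 round spermatid markers had no changed gene, 1 higher and 2 lower at an unadjusted p under 0.05 (4% and 8%), and a median of -0.18. Of the 25, 20 lay below 0 (80.0%, against 46.0% of all genes). Their largest difference was against this direction: Acr, the gene of acrosin, read 1484 and 1431 in MIWI +/- and 2336 and 2352 in MIWI +/KI (0.69, SE 0.14, adjusted p = 0.147), and the largest of the 20 below 0 was Actrt3 at -0.50.

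**Figure D3:**
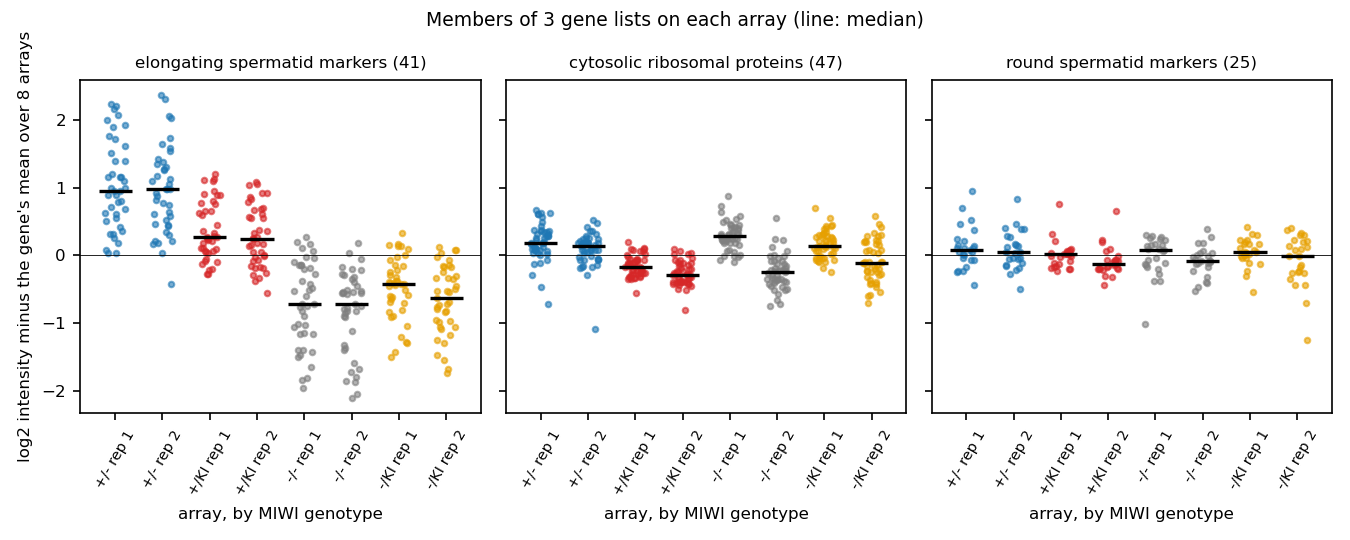
Log2 intensity of each member minus its mean over the 8 arrays, for elongating spermatid markers (41), cytosolic ribosomal proteins (47) and round spermatid markers (25); each point is a gene on 1 array and the line is the median. The elongating markers' median is 0.96 and 0.97 in MIWI +/-, 0.27 and 0.25 in MIWI +/KI, and between -0.72 and -0.41 on the other 4 arrays.

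Some members of that marker list had differences as large as Car2 or nearly so without passing the test. Tex37, named for its expression in testis, read 1131 and 1223 in MIWI +/- and 459 and 449 in MIWI +/KI (log2 difference -1.37, SE 0.20, limma adjusted p = 0.0829). Iqcf4, an IQ motif gene, read 1387 and 1043 against 561 and 462 (-1.24, SE 0.24, adjusted p = 0.131). Tnp1, which encodes a transition protein that replaces histones, read 3820 and 3333 against 1717 and 1483 (-1.16, SE 0.26, adjusted p = 0.163). None of the 3 passed the test over 8 arrays. Tnp2 read 5928 and 5392 against 3834 and 3702 (-0.59, SE 0.20). The protamine gene Prm1 read 4185 and 2808 against 2172 and 2045 (-0.70, SE 0.31), and Prm2 read 7285 and 6648 against 5987 and 5897 (-0.23, SE 0.18). Prm3, the third protamine gene, read 1378 and 1580 against 851 and 785 (-0.85, SE 0.15, adjusted p = 0.111). Among these 5 transition protein and protamine genes the difference was largest in Tnp1 and smallest in Prm2.

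By pathway, spermatid chromatin condensation had 1 fall, in H2bl1, and no rise among 34 measured genes, where 0.0702% of all genes fell. At an unadjusted p under 0.05, 12 were lower (35.3%, against 5.55% of all genes) and 0 higher, with a median of -0.32. Besides Tnp1, the kinase gene Tssk6, whose product is needed for chromatin condensation, read 656 and 440 in MIWI +/- and 257 and 235 in MIWI +/KI (-1.13, SE 0.27, limma adjusted p = 0.179), and the histone variant gene H2al2a stood at -1.01 (SE 0.18, adjusted p = 0.112). CREM and its targets had no changed gene among 37, 15 lower (40.5%) and 1 higher (2.70%) at an unadjusted p under 0.05, and a median of -0.23. Crem itself read 854 and 931 in MIWI +/- and 883 and 849 in MIWI +/KI, overlapping between the genotypes (-0.04, SE 0.15). In the CREM list, Camk4, a calcium-dependent kinase gene (-1.10, SE 0.14), and Fhl5, the gene of the CREM coactivator ACT (-1.06, SE 0.15), each had a limma adjusted p of 0.0757. Camk4 read 763 and 791 in MIWI +/- and 384 and 340 in MIWI +/KI. The elongating spermatid markers given above moved with these lists and share members with them, and their part was not tested.

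Lists of other haploid functions had no changed gene by limma over 8 arrays. Their counts at an unadjusted p under 0.05 are read against the 5.55% of all genes that were lower and the 6.16% that were higher. Sperm tail structure had 12 lower (24.0%) and 5 higher (10%) of 50 (median -0.11), with Spata19, a mitochondrial protein of the midpiece, at -1.16 (SE 0.19, adjusted p = 0.100) and Ropn1, of the fibrous sheath, at -0.70. The acrosome list had 5 lower (12.2%) and 3 higher (7.32%) of 41 (median -0.09), with Pcsk4, a proprotein convertase gene, at 0.97 and Izumo3 at -0.70. Haploid energy metabolism had 6 lower (17.6%) and 3 higher (8.82%) of 34 (median -0.14). There the isocitrate dehydrogenase gene Idh1 read 303 and 320 in MIWI +/- and 82.1 and 115 in MIWI +/KI (-1.68, SE 0.42, adjusted p = 0.196), and the spermatid aldolase gene Aldoart1 stood at -0.61. Testis-specific kinases and signalling had 8 lower (19.5%) and 2 higher (4.88%) of 41 (median -0.07), and the highest was Prkx, a cyclic AMP-dependent kinase gene, at 69.6 and 81.3 in MIWI +/- and 177 and 229 in MIWI +/KI (1.42, SE 0.20, adjusted p = 0.0757). Prkx read 572 and 643 in MIWI -/- and 636 and 515 in MIWI -/KI.

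The piRNA pathway showed no changed gene among 37 measured, with 2 higher and 2 lower at an unadjusted p under 0.05 (5.41% each, near the 6.16% and 5.55% of all genes) and a median of -0.07. Its largest difference was in Tdrd1, the gene of a Tudor domain protein that binds PIWI proteins in germ granules. Tdrd1 read 332 and 326 in MIWI +/- and 682 and 820 in MIWI +/KI (log2 difference 1.19, SE 0.18, 2.28-fold, limma adjusted p = 0.0886), and 2067 and 1795 in MIWI -/-. The MIWI +/KI arrays lay between those of MIWI +/- and those of MIWI -/-. Gtsf1l, a paralog of the piRNA factor gene Gtsf1, stood at -0.80 (SE 0.29). Of the other PIWI genes, Piwil2, which encodes MILI, read 549 and 506 in MIWI +/- and 628 and 662 in MIWI +/KI (0.29, SE 0.14, adjusted p = 0.477), and 1099 and 1004 in MIWI -/-. Piwil4, the gene of MIWI2, which acts in fetal germ cells, stayed between 39.9 and 41.0 on all 4 compared arrays. Germ cell mRNA storage and translation had 6 higher (12%) and 2 lower (4%) of 50 at an unadjusted p under 0.05 (median 0.05), led by the RNA-binding protein genes Msi1 (0.81, SE 0.24) and Dazap1 (0.65, SE 0.18).

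Of 47 cytosolic ribosomal protein genes none changed by limma over 8 arrays, 12 were lower (25.5%, against 5.55% of all genes) and 1 higher at an unadjusted p under 0.05, and 42 lay below 0 (89.4%, against 46.0% of all genes) with a median of -0.35. Rpl7 read 860 and 752 in MIWI +/- and 399 and 336 in MIWI +/KI (-1.14, SE 0.30, adjusted p = 0.216), and Rps20 stood at -0.76. Their replicates differed in MIWI -/-, where Rpl7 read 802 and 395. Of 45 mitochondrial respiratory chain genes 37 lay below 0 (82.2%; 5 lower and 1 higher at an unadjusted p under 0.05, or 11.1% and 2.22%; median -0.29), with Ndufb8 at -0.69 and Atp5o at -0.68. Both lists also parted between the MIWI -/- replicates: the members' median deviation from their mean over 8 arrays was 0.29 and -0.25 there for ribosomal proteins and 0.37 and -0.16 for the respiratory chain. These gaps in MIWI -/- are larger than the differences of -0.35 and -0.29 between the genotypes. Replicate 1 lay above replicate 2 in the other genotypes too. In MIWI -/KI the medians were 0.14 and -0.10 for ribosomal proteins and 0.25 and -0.05 for the respiratory chain. Ubiquitin and proteasome genes had 9 lower (18.8%) and 2 higher (4.17%) of 48 (median -0.20), led by the spermatid ubiquitin ligase genes Rnf148 (-1.22, SE 0.18, adjusted p = 0.0849) and Rnf133 (-0.98, SE 0.14, adjusted p = 0.0757). Interferon and nucleic acid sensing had 0 of 36 genes past either threshold (median 0.04), with Eif2ak2 at -0.33 and Adar at 0.31. The p53, DNA damage and cell death list had no changed gene of 33 and a median of 0.14. At an unadjusted p under 0.05, 5 were higher (15.2%, against 6.16% of all genes) and 2 lower (6.06%, against 5.55%). Zmat3 stood at 0.86 (SE 0.19, limma adjusted p = 0.160) and the survival gene Bcl2l1 at 0.77. Endoplasmic reticulum and heat stress had 3 higher and 3 lower of 40 (7.50% each), with Calr3 at -0.87 and Asns at -0.50.

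**Figure D4:**
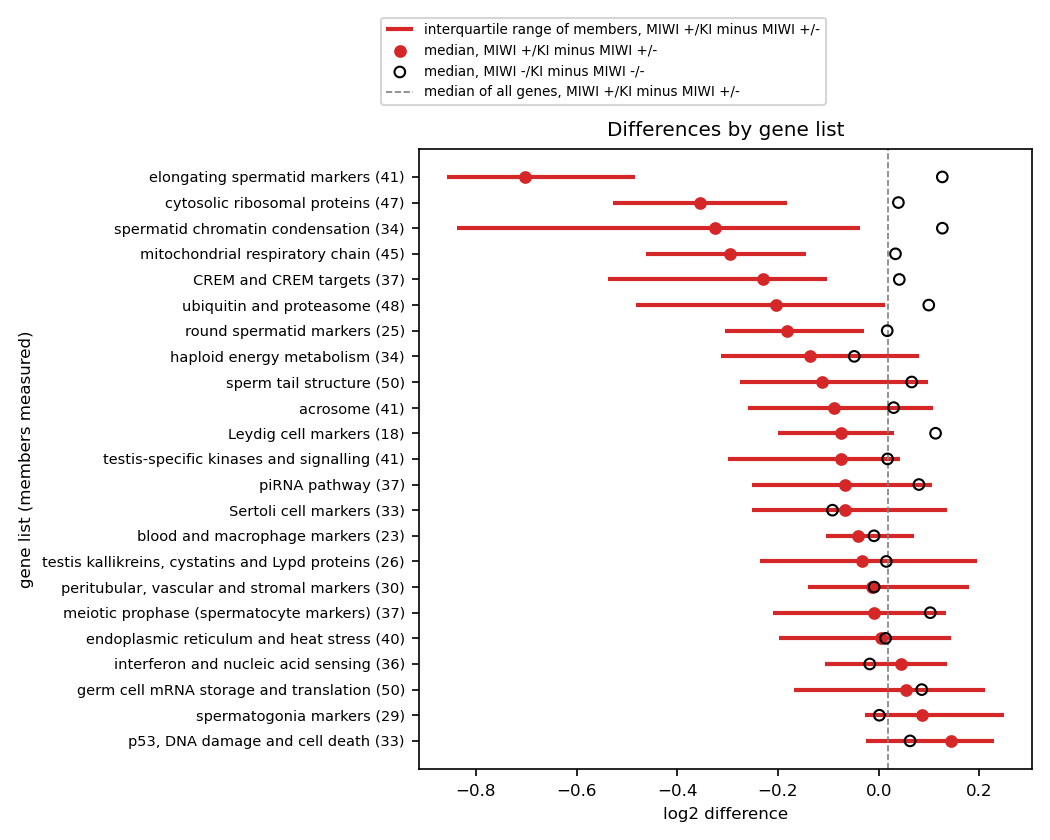
Median log2 difference of the 23 gene lists with more than 5 measured members (number in brackets): filled points with bars for the interquartile range of members show MIWI +/KI minus MIWI +/-, open points MIWI -/KI minus MIWI -/-, and the dashed line is the median of all genes (0.02). Elongating spermatid markers have the lowest median beside wild-type, at -0.70, but not beside null, where they stand at 0.13.

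Markers of other testicular cells gave no changed gene by limma over 8 arrays. Spermatocyte markers had 3 higher (8.11%) and 2 lower (5.41%) of 37 at an unadjusted p under 0.05, against 6.16% and 5.55% of all genes, and a median of -0.01, with Hmmr at 0.68 and Tex11 at -0.63, and spermatogonia markers 1 higher and 0 lower of 29 and a median of 0.09, with Rhox13 at -0.58 and Dmrtb1 at 0.46. Sertoli cell markers had 2 higher (6.06%) and 4 lower (12.1%) of 33 (median -0.07), and the largest differences were in the cystatin genes Cst9 (-1.21, SE 0.44) and Cst12 (-1.07, SE 0.28, adjusted p = 0.212). The summed Sertoli intensity was 5706 and 5388 in MIWI +/- and 4796 and 5506 in MIWI +/KI, overlapping between the genotypes. Leydig cell markers had 0 higher and 1 lower of 18 (median -0.07), with Fdx1 at -0.56 and Scarb1 at 0.36. Peritubular, vascular and stromal markers had 0 higher and 1 lower of 30 (median -0.01): the smooth muscle actin gene Actg2 read 1810 and 1969 in MIWI +/- and 998 and 917 in MIWI +/KI (-0.98, SE 0.17, adjusted p = 0.111), and Dcn stood at -0.53. Among the blood and macrophage markers counted above, Aif1 stood at -0.58 and H2-Aa at -0.57.

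Several differences as large as those that passed missed the threshold and, outside the lists, were named after their values were seen. Fbrs read 117 and 155 in MIWI +/- and 550 and 534 in MIWI +/KI (log2 difference 2.01, SE 0.27, limma adjusted p = 0.0757). Its replicates were apart in MIWI -/-, at 434 and 764. Slc41a1, a magnesium transporter gene, read 88.6 and 114 against 324 and 362 (1.76, SE 0.29, adjusted p = 0.100), with 547 and 1043 in MIWI -/-. Naalad2, a dipeptidase gene, read 259 and 290 against 83.8 and 77.1 (-1.77, SE 0.26, adjusted p = 0.0848), and 36.6 and 34.7 in MIWI -/-. For Fbrs and Slc41a1 the MIWI -/- replicates were further apart than the replicates of either compared genotype.

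The same exchange of a null for a knock-in allele was also measured beside a null allele, as MIWI -/KI against MIWI -/-. The arrays of MIWI -/- and MIWI -/KI do not enter the difference between MIWI +/KI and MIWI +/-, but they do enter the spread that its test over 8 arrays used. No gene changed there by limma (0 of 19938, 0%; 908 with an unadjusted p under 0.05, and 0 with the spread of those 4 arrays alone). As no gene passed, the smallest p-values are given: Piwil1 had the smallest, at 1.99 (SE 0.17, adjusted p = 0.0816), followed by 3110040M04Rik (1.51) and Rpa1, a gene of the single-stranded DNA-binding replication protein A (1.92). Rpa1 read 201 and 165 in MIWI -/- and 600 and 792 in MIWI -/KI, but 530 and 554 in MIWI +/- and 525 and 638 in MIWI +/KI. The genes that rose beside wild-type stood below 0 beside null: Lypd11 at -0.16, Lypd10 at -0.10, Lrrc61 at -0.50, Tmem106c at -0.22 and Tkfc at -0.22. Of those that fell, Gm136 stood at 0.78, Tex55 at 0.74, Tex50 at 0.64, Car2 at 0.48, H2bl1 at 0.27, Smim23 at 0.12, Tppp2 at 0.06 and Chrna5 at 0.00, with SEs between 0.14 and 0.20 for these 8 genes. Across all 19938 genes the Pearson correlation of both differences was -0.47, a description over genes, which are not independent replicates.

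Whether the difference depends on the other allele was tested as the difference between both comparisons, and no gene passed (0 of 19938, 0%; 2585 with an unadjusted p under 0.05). The smallest adjusted p was 0.0711, shared by Tex55 (-2.43, 95% interval -3.02 to -1.85), Gm136 (-2.44), Lrrc61 (2.23), Tex50 (-2.01), Cstl1 (-2.42) and Acte1 (-2.12) among others. For Lypd11 it was 2.20 (95% interval 1.59 to 2.81, adjusted p = 0.0711), for Car2 -1.70 (adjusted p = 0.0711) and for Piwil1 -1.08 (SE 0.24, adjusted p = 0.142). The median over the elongating spermatid markers was -0.85. Leaving out MIWI -/- replicate 1 brought the count to 241, and leaving out MIWI -/KI replicate 1 to 48.

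**Figure D5:**
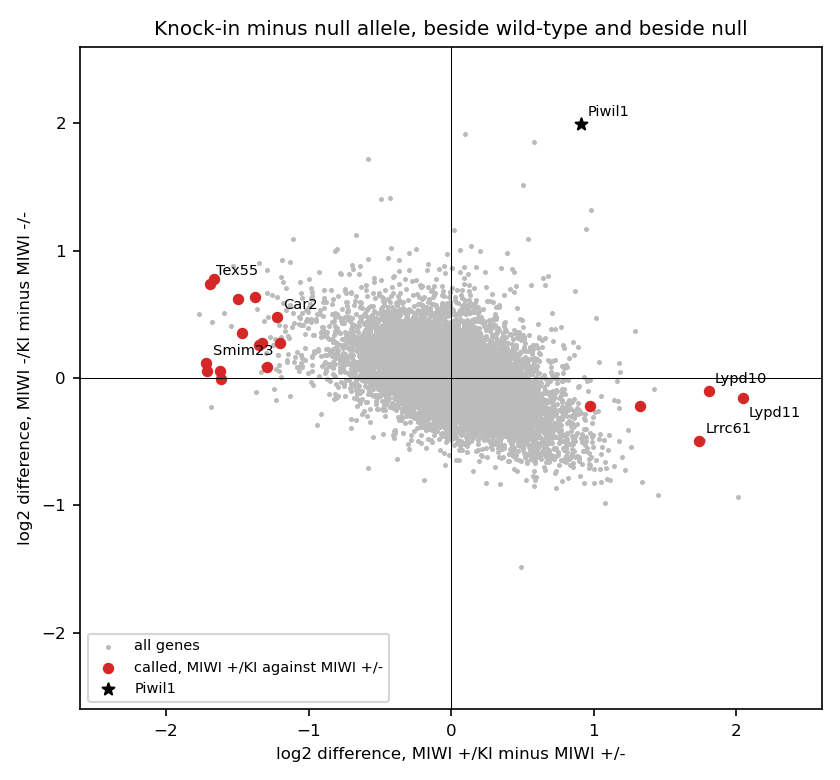
Log2 difference of each of 19938 genes beside wild-type (MIWI +/KI minus MIWI +/-, horizontal) and beside null (MIWI -/KI minus MIWI -/-, vertical); red points are the 19 genes changed in the former, the star is Piwil1. The 5 red points on the right lie below 0 on the vertical axis, and Piwil1 lies at 0.91 and 1.99.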

How the data were processed

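RNA of 8 preparations was measured on Affymetrix arrays, 2 per genotype. The deposited values are linear intensities for 35512 transcript clusters, made by the authors with RMA per the submitters' processing notes (version, and whether all arrays were normalised together, not given in the sources used here). Their log2 was taken, and 8 cells over 100 times the median of their row were set missing. Of the clusters, 21789 had 1 gene symbol, 1621 several and 12102 none. Whether all clusters without a symbol measure transcripts was not tested. A gene with several clusters was read on the one with the highest mean, which gave 19938 genes. The annotation of the platform matched the GRCm38.p6 gene table for 21698 clusters. limma 3.58.1 (R 4.3.3) was fitted over all 8 arrays with 1 mean per genotype and a variance trend (4 residual, 3.98 prior degrees of freedom), and tests were two-sided, adjusted over all clusters by the Benjamini-Hochberg method. SE is limma's moderated standard error.

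Named genes were all that passed without overlap between arrays, at most 12 each way and skipping uncharacterised symbols, Piwil1, the smallest p-values where none passed, and up to 4 members of each of 24 lists (751 genes). Others are marked as chosen after their values were seen; these include Tex101, Crem, Tnp2, Prm1, Prm2, Prm3, Lypd9 and Lypd4. The members and lists were chosen with earlier results of these data known. Alternatives were other treatments of the missing cells, mean of clusters, same median, quantile normalization, only clusters above the median brightness, 4 arrays only, replicate block, no trend, array weights, log2(value + 16) and each array left out. In simulated data of 35512 clusters, the test recovered 37 of 67 changes of 2-fold, 66 of 67 of 4-fold and 66 of 66 of 8-fold, with 14 false calls. The simulation gave a cluster the same spread in all genotypes. On the real arrays the median SD within a genotype ran from 0.06 in MIWI +/KI to 0.20 in MIWI -/KI. The simulated counts therefore do not give the power of the test on these arrays. Promoters were RefSeq windows.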

Additional observations from a re-analysis of the deposited data

Results flagged for a closer look

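Cluster 10340088 has no gene in the platform annotation, and whether it measures a transcript was not tested. It was the only cluster past limma's threshold for the difference between both comparisons (2.15 on the log2 scale, SE 0.17, adjusted p = 0.0461). It read 14.3 and 13.8 in MIWI +/-, 41.2 and 41.8 in MIWI +/KI, 21.6 and 24.2 in MIWI -/-, and 15.3 and 15.1 in MIWI -/KI. The difference was 1.56 beside wild-type (adjusted p = 0.0379) and -0.59 beside null (adjusted p = 0.998). All these readings lie below the array medians.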

How the results depend on the processing

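The 19 genes became 0 with the arrays shifted to the same median or quantile-normalised once more, 120 (33 higher, 87 lower) among clusters above the median brightness, 1474 with only the 4 compared arrays, and 1799 (936 higher, 863 lower) with array weights. They numbered between 0 and 27 with 1 array left out: 0 without either array of MIWI +/-, MIWI +/KI or MIWI -/-, and 26 and 27 without MIWI -/KI replicates 1 and 2. With the replicate number as a block they became 0 (lowest adjusted p 0.0824). Over all clusters, the gap between replicates 1 and 2 correlated weakly between genotypes (-0.26 to 0.30 over the 6 pairs, 0.03 for the compared pair). The median deviation of ribosomal protein and respiratory chain genes was higher in replicate 1 than in replicate 2 of every genotype. Whether the numbers pair the samples was not tested. In the other 5 settings the count lay between 16 and 20. In all settings the 19 genes kept their sign where measured (17 above the median brightness). The lowest adjusted p was 0.0720 with the same median, 0.0556 after quantile normalization, 0.309 and 0.370 without MIWI +/- replicates 1 and 2, and 0.548 and 0.795 without MIWI +/KI replicates 1 and 2. The median of all genes moved from 0.02 to -0.02 with the same median.

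For MIWI -/KI against MIWI -/- the 0 genes became 3 above the median brightness, 2 with no trend, and between 0 and 6 with 1 array left out (6 without MIWI -/KI replicate 1). The 0 genes whose difference depends on the other allele became 173 above the median brightness (72 higher, 101 lower) and between 0 and 241 with 1 array left out; the fit with only the 4 compared arrays cannot give this test. Piwil1 kept 0.91 and passed with only the 4 compared arrays (adjusted p = 0.0167) and with array weights (adjusted p = 0.00659). The array weights were 1.36 for MIWI +/-, 2.74 for MIWI +/KI, 0.778 for MIWI -/- and 0.344 for MIWI -/KI. The cause of these shifts was not tested. Depth does not apply to arrays; dim genes such as Chil3 lie below the array medians.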

Other observations

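Of 23 clusters that passed between MIWI +/KI and MIWI +/-, 4 had no gene in the annotation. Whether these 4 measure transcripts was not tested. Besides the cluster described above, cluster 10340195 read 35.9 and 31.5 in MIWI +/- and 145 and 144 in MIWI +/KI (2.11, SE 0.24), with 61.3 and 82.2 in MIWI -/- and 20.5 and 32.5 in MIWI -/KI. Cluster 10340619 read 91.8 and 73.4 in MIWI +/- and 241 and 240 in MIWI +/KI (1.55, SE 0.18), with 123 and 147 in MIWI -/- and 98.8 and 89.1 in MIWI -/KI. In both, the MIWI +/KI arrays were the highest of the 8. Cluster 10586454 read 828 and 751 in MIWI +/- and 268 and 211 in MIWI +/KI (-1.73, SE 0.17), with 47.6 and 54.2 in MIWI -/- and 66.7 and 64.7 in MIWI -/KI.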
